A study of Mus musculus with 12 samples.

Results

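The E2F family and its DP partners comprise 10 genes on the Affymetrix Mouse Gene 1.0 ST array: E2f1 to E2f8, Tfdp1 and Tfdp2. They were chosen by name, and each was read from the probe set that carries its symbol alone. Where a gene had more than 1 such probe set, that of highest mean value on the 12 arrays was used. The 10 genes are among 19938 measured genes. RNA came from mouse embryonic fibroblasts, cells cultured from mouse embryos, with 3 arrays in each of 4 groups. S/S cells carried a mutant Rb1 on both copies and were set against Rb1 +/+ cells matched to them (the S set). L/L cells carried another Rb1 mutant on both copies and had Rb1 +/+ cells of their own (the L set). Every group was grown in 10% FBS to passage 4 and then held in 0.1% FBS for 72 h, a treatment used to stop cells from dividing. How far division had stopped was not measured here. What each allele changes in the protein is not stated in the labels, nor is whether arrays of one group come from different embryos or cultures. The p-values therefore measure only the spread among these samples.

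E2F proteins bind DNA upstream of genes for DNA replication and cell cycle entry. In a resting cell, the product of Rb1 and its relatives p107 and p130 hold E2Fs and keep those genes off, and cyclin-dependent kinases release them when the cell divides. E2F1, E2F2 and E2F3 are the activators and the preferred partners of the Rb1 product, while E2F4 and E2F5 act mainly as repressors with p107 and p130. E2F6 represses without pocket proteins, and the atypical members E2F7 and E2F8 repress without a DP protein. DP1 and DP2, encoded by Tfdp1 and Tfdp2, are the dimer partners that E2F1 to E2F6 need to bind DNA. Several of these genes are themselves E2F targets, so their own promoters carry E2F sites.

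Promoter windows of 8 members were found in RefSeq tables for GRCm38.p6, with 12 windows in all, each of 250 bases before and 50 bases after an annotated start. Several starts lay well inside the gene's span, by 466 bases in E2f1, 477 in E2f8, and 62459 and 63002 in Tfdp2. The second windows of E2f2 and E2f3 lay 8508 and 1673 bases inside. The windows of E2f1, E2f8 and Tfdp2 therefore do not show whether their outer promoters hold the words sought. The words TTTCCCGC, TTTGGCGC, TTTCGCGC and TTTGCCGC, searched on both strands, stand for an E2F site. One of them was present in windows of E2f2, E2f3, E2f7 and Tfdp1, in 5 of the 12 windows, and in 2.26% of 32851 mouse windows. Both Tfdp1 windows overlap and hold the same match. The same words without their first T, which the longer words contain, were present in 6 of the 12 windows, of these 4 genes and E2f8, and in 9.57% of all windows. The CHR word TTTGAA, read by repressor complexes of mitotic genes, was present in a window of E2f2, E2f3 and E2f8 and in 17.9% of all windows. The E2f2 match to it was in the window 8508 bases inside the gene. The E2f8 matches to the shorter E2F word and to the CHR word were in the window whose start lies 477 bases inside. These matches describe letters and were not measured as bound sites. Below, stretches before the start of the 3 genes with a full-length match there are given 5′ to 3′ on the gene's own strand. Capitals mark E2F words, and in E2f3 also the CHR word.
E2f3 (GRCm38.p6, chr13:29986065-29986214, minus strand): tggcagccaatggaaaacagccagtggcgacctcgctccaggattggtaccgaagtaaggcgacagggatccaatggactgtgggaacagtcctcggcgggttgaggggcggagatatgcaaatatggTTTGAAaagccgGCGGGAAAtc
E2f7 (GRCm38.p6, chr10:110745189-110745438, plus strand): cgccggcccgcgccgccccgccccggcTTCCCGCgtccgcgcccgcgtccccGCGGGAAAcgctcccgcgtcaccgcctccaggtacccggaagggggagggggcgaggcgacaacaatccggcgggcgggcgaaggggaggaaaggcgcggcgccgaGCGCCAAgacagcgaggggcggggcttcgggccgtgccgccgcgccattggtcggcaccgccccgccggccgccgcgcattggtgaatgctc
Tfdp1 (GRCm38.p6, chr8:13338575-13338724, plus strand): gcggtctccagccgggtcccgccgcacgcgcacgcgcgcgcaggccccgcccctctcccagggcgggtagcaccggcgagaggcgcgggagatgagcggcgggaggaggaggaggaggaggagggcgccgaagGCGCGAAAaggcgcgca
In the E2f3 stretch the CHR word lies just upstream of the E2F word, next to the start. The E2f7 stretch holds 3 E2F words, of which 1 is full length.

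Values are log2 RMA values, in which a difference of 1 is a doubling. One array, number 1 among the wild types of the S set, stood apart. The residual SD of its genes around the group means was 0.325, against 0.0933 to 0.193 in the other 11. Differences of the members that it sets are given with and without it. Differences of other genes in S/S cells and between wild types are given with it only. In the L set, the L/L array and the wild-type array numbered 1 held Y-linked RNA: Eif2s3y was at 9.09 in that L/L array and 9.15 in that wild-type array, against 3.82 to 4.43 elsewhere. Fibroblast markers were high, with the mean of 8 markers between 11.4 and 11.8 on every array. Macrophage markers differed within the S set: the mean of 8 markers was 8.57 to 8.71 on S/S arrays and 7.65 to 7.99 on wild-type arrays. In the L set these means overlapped, at 6.90 to 8.51 in L/L cells and 7.27 to 9.33 in wild-type cells. Rb1 RNA was at 9.72, 9.58 and 9.35 in S/S cells, against 8.34, 8.83 and 8.89 in their wild type, a difference of 0.87 that did not pass (SE 0.17, adjusted p = 0.0976). The lowest of these wild-type values, 8.34, is on the array that stood apart. In L/L cells Rb1 RNA was at 9.39, 9.36 and 9.23, against 9.23, 9.05 and 8.61 in their wild type. Every member had a mean above 6.26, the 95th percentile of the mean levels of 1027 olfactory receptor genes, which fibroblasts are not known to use.

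**Figure D1:**
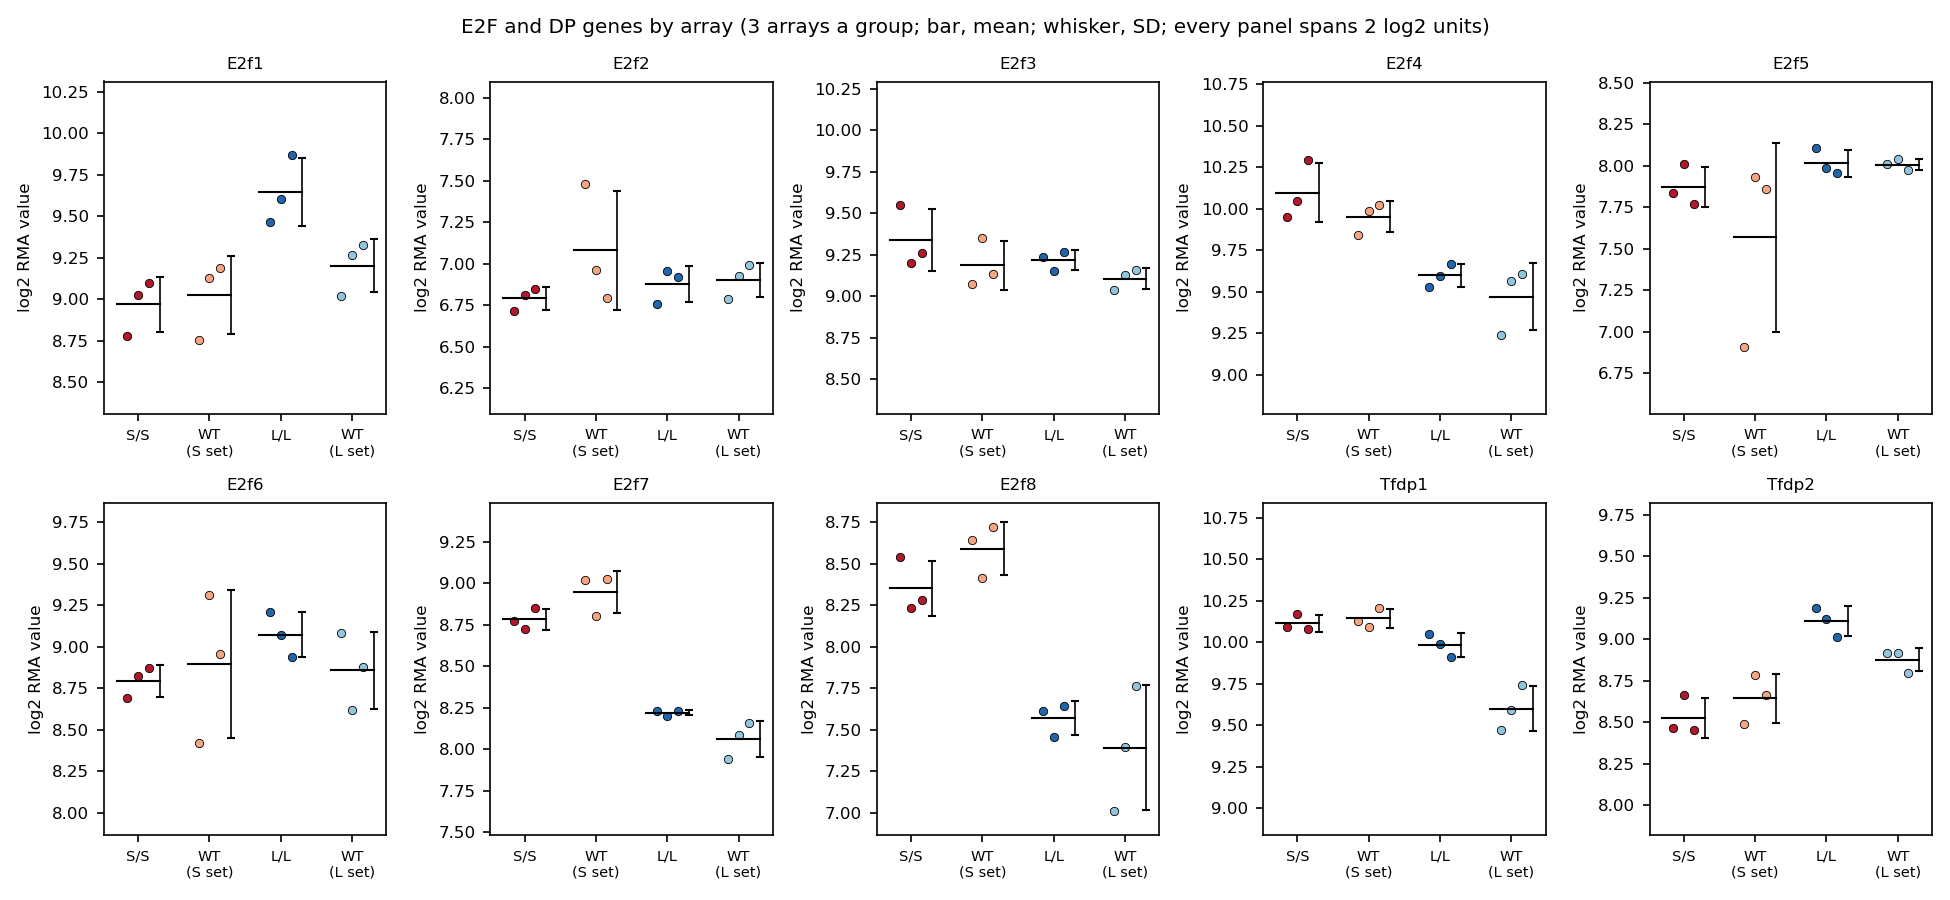
Log2 RMA value of each E2F and DP gene (vertical axis) on each of 12 arrays, grouped on the horizontal axis as S/S, its wild type, L/L and its wild type, with points for arrays, bars for means and whiskers for SD (n = 3). E2f7 and E2f8 lie lower in both groups of the L set than in both groups of the S set, while E2f1 lies highest in L/L cells.

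In S/S cells no E2F or DP gene passed the test against the matched wild type (limma, Benjamini-Hochberg adjustment over 19938 genes, threshold 0.05). Over all genes 24 passed, or 0.12%. No member had an unadjusted p under 0.05, against 10.1% of all genes, and no member had groups that did not overlap, against 11.8% of all genes. Of the 10 differences 3 were positive and 7 negative, with a median of -0.079, against -0.036 over all genes. The widest bound of any member's 95% interval was 0.75, so a doubling of a member lay outside each interval.

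Among the activators, E2f1, which drives entry into S phase and can also drive apoptosis, was at 8.78, 9.03 and 9.10 in S/S cells, against 8.75, 9.13 and 9.19 in their wild type. These values interleave, and the difference was -0.055 (95% interval -0.38 to 0.27, adjusted p = 0.9), or -0.19 without the array that stood apart. E2f2 was at 6.71, 6.81 and 6.85 in S/S cells, against 7.48, 6.96 and 6.80 in their wild type. The highest wild-type value is that of the array that stood apart, and the difference was -0.29 with it (adjusted p = 0.527) and -0.088 without it (adjusted p = 0.791). E2f3, whose locus gives both an activating and a repressing isoform that this probe set was not shown to tell apart, was at 9.55, 9.20 and 9.26 in S/S cells, against 9.07, 9.35 and 9.13 in their wild type. The groups overlapped, and the difference was 0.15 (95% interval -0.10 to 0.40), or 0.094 without that array.

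Among the repressors, E2f4, the main E2F of resting cells, was at 9.95, 10.05 and 10.29 in S/S cells, against 9.84, 9.99 and 10.02 in their wild type. The lowest S/S array lay among the wild-type arrays, and the difference was 0.14 (95% interval -0.12 to 0.41), or 0.090 without the array that stood apart. E2f5, its close relative, was at 7.84, 8.01 and 7.77 in S/S cells, against 6.91, 7.93 and 7.86 in their wild type. One low wild-type array, the one that stood apart, set the difference of 0.30, which was -0.025 without it (adjusted p = 0.948). E2f6, which works with polycomb proteins, was at 8.69, 8.82 and 8.87 in S/S cells, against 8.42, 9.31 and 8.96 in their wild type. The wild-type arrays spread around the S/S arrays on both sides, and the difference was -0.10, or -0.34 without the array that stood apart (adjusted p = 0.407).

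The atypical members averaged lower in S/S cells within overlapping values. E2f7 was at 8.77, 8.73 and 8.85 in S/S cells, against 9.02, 8.80 and 9.02 in their wild type, a difference of -0.17 (95% interval -0.38 to 0.05). E2f8 was at 8.54, 8.23 and 8.28 in S/S cells, against 8.64, 8.41 and 8.72 in their wild type, a difference of -0.24 (95% interval -0.60 to 0.12). In each gene 1 S/S array lay above the lowest wild-type array. Of the dimer partners, Tfdp1 was at 10.09, 10.17 and 10.08 in S/S cells, against 10.13, 10.09 and 10.21 in their wild type. Tfdp2 was at 8.47, 8.66 and 8.45 in S/S cells, against 8.49, 8.78 and 8.67 in their wild type. Both overlapped, with differences of -0.031 for Tfdp1 and -0.12 for Tfdp2, or -0.20 for Tfdp2 without the array that stood apart.

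In L/L cells no member passed the test either, and over all genes 8 passed, or 0.0401%. Of the 10 differences 9 were positive, with a median of 0.17, while the median over all genes was 0.015 and 55.9% of all genes were positive. The 10 genes were read on the same arrays, so this count is a description. E2f5 (0.0074) and E2f8 (0.18) turned to -0.037 and -0.031 without both arrays with Y-linked RNA. Unadjusted p was under 0.05 for E2f1 and Tfdp1, 2 of 10 members, against 3.27% of all genes. Every L/L array lay above every wild-type array for E2f1, E2f7, Tfdp1 and Tfdp2, 4 of 10 members, against 9.71% of all genes. By class, the median difference of L/L cells was 0.11 for the activators, 0.13 for the repressors, 0.17 for the atypical members and 0.31 for the DP partners. The same medians in S/S cells were -0.055 for the activators, 0.14 for the repressors, -0.20 for the atypical members and -0.075 for the DP partners, and all are descriptions of 2 or 3 genes each. In bulk RNA, fewer cells of a type and less RNA per cell cannot be told apart.

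E2f1 was at 9.46, 9.60 and 9.87 in L/L cells, against 9.02, 9.26 and 9.32 in their wild type. The groups did not overlap, and the L/L mean was 1.36-fold that of the wild type (95% interval 1.09 to 1.70), with an unadjusted p of 0.0106 and an adjusted p of 0.943. On the log2 scale this was 0.44 with all arrays and 0.44 without both arrays with Y-linked RNA. Tfdp1 was at 10.05, 9.99 and 9.91 in L/L cells, against 9.47, 9.59 and 9.74 in their wild type. These groups did not overlap either, and the L/L mean was 1.30-fold that of the wild type (95% interval 1.12 to 1.51), with an unadjusted p of 0.00187 and an adjusted p of 0.426. The log2 difference of Tfdp1 was 0.38, and 0.28 without both arrays with Y-linked RNA. Ranked by p, Tfdp1 stood at 85 and E2f1 at 225 of 19938 genes. Tfdp1 passed in 1 alternative fit, with weights for array quality (0.39, adjusted p = 0.00926), and in none of 12 fits that left out 1 array.

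Of the other DP and atypical genes, Tfdp2 was at 9.19, 9.13 and 9.02 in L/L cells, against 8.92, 8.92 and 8.80 in their wild type, a difference of 0.23 (SE 0.11, adjusted p = 1). E2f7 was at 8.23, 8.20 and 8.23 in L/L cells, against 7.94, 8.08 and 8.16 in their wild type, a difference of 0.16 (95% interval -0.06 to 0.38). In both genes the L/L arrays lay just above the highest wild-type array. E2f8 was at 7.61, 7.46 and 7.64 in L/L cells, against 7.01, 7.39 and 7.76 in their wild type. The wild-type arrays of E2f8 spanned the L/L arrays, and the difference was 0.18 with all arrays and -0.031 without both arrays with Y-linked RNA.

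The remaining activators and the repressors overlapped between L/L cells and their wild type. E2f2 was at 6.76, 6.96 and 6.92 in L/L cells and at 6.79, 6.93 and 6.99 in wild type. E2f3 was at 9.24, 9.15 and 9.26 in L/L cells and at 9.04, 9.13 and 9.16 in wild type. Their differences were -0.026 for E2f2 and 0.11 for E2f3. E2f4 was at 9.53, 9.60 and 9.67 in L/L cells and at 9.24, 9.56 and 9.61 in wild type. E2f5 was at 8.10, 7.98 and 7.95 in L/L cells and at 8.01, 8.04 and 7.97 in wild type. E2f6 was at 9.21, 9.07 and 8.94 in L/L cells and at 9.08, 8.62 and 8.88 in wild type. The repressors differed by 0.13 for E2f4, 0.0074 for E2f5 and 0.22 for E2f6, all with adjusted p = 1. The E2f4 difference was 0.013 once the lowest wild-type array, number 1, was left out. The widest bound among the members' intervals in L/L cells was 0.76.

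**Figure D2:**
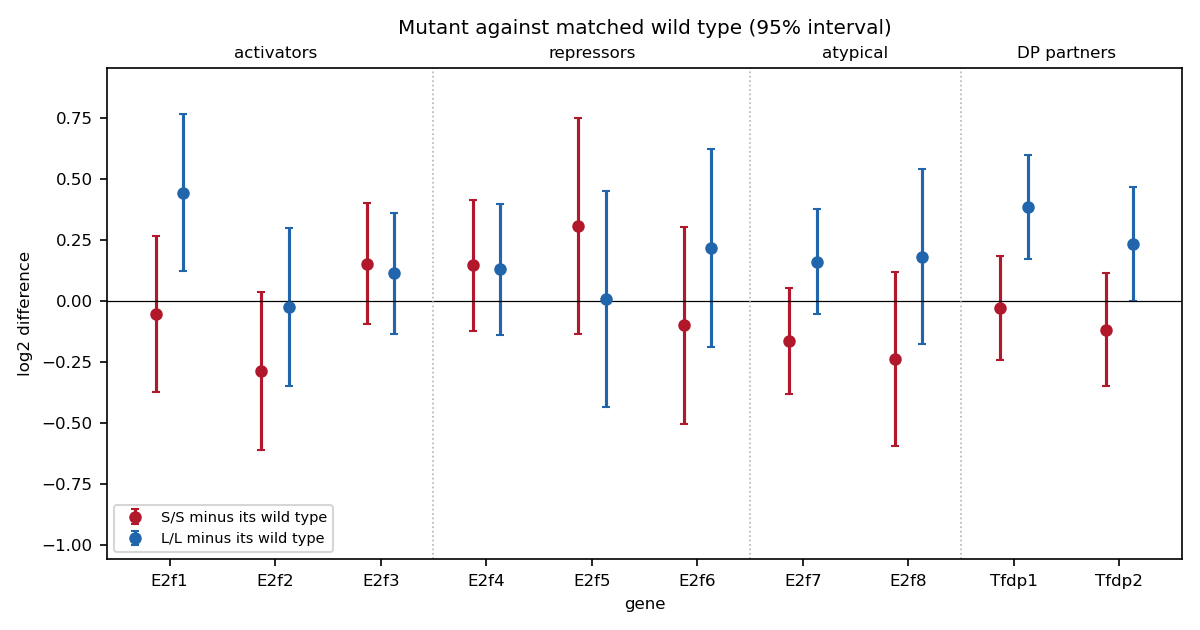
Log2 difference of each mutant from its matched wild type (vertical axis) for the 10 genes, ordered by class, as points with 95% intervals from the fit of 12 arrays. L/L points lie above 0 for 9 genes and S/S points for 3, and the L/L intervals of E2f1 and Tfdp1 lie above 0 before adjustment.

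Whether the mutants differed from each other in their effect was tested directly, as the S/S effect minus the L/L effect. No member passed, and 3 genes of 19938 did, or 0.015%. Unadjusted p was under 0.05 for E2f1, E2f7, Tfdp1 and Tfdp2, 4 of 10 members, against 6.5% of all genes. These were the 4 genes whose L/L groups did not overlap. The L/L difference is itself a term of this contrast, so that match is in part built in. The difference between effects was -0.50 for E2f1 (SE 0.21, adjusted p = 0.764) and -0.41 for Tfdp1 (adjusted p = 0.679). It was -0.32 for E2f7 and -0.35 for Tfdp2, each with an adjusted p of 0.764. The positive differences between effects were those of E2f3, E2f4 and E2f5, at 0.039, 0.016 and 0.30. Without the array that stood apart all 3 were negative, at -0.018 for E2f3, -0.038 for E2f4 and -0.033 for E2f5.

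The clearest differences of these genes lay between the sets. In wild-type cells 4 of 10 members passed between the L set and the S set, all lower in the L set, against 8.71% of all genes in either direction and 5.17% lower. What sets these wild types apart is not given in the labels, so litter, culture and array handling cannot be told apart. E2f8 was at 7.01, 7.39 and 7.76 in wild-type cells of the L set, against 8.64, 8.41 and 8.72 in those of the S set. All 3 arrays of the L set lay below all 3 of the S set, by 1.20 in the mean, a 2.30-fold lower level (95% interval -1.56 to -0.84 on the log2 scale, adjusted p = 0.00214). E2f7 was at 7.94, 8.08 and 8.16 in wild-type cells of the L set, against 9.02, 8.80 and 9.02 in those of the S set, a log2 difference of -0.89 (95% interval -1.10 to -0.67, adjusted p = 0.000827). E2f7 thus stood 15th and E2f8 55th by p among all genes in this comparison, and neither pair of groups overlapped.

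Tfdp1 was at 9.47, 9.59 and 9.74 in wild-type cells of the L set, against 10.13, 10.09 and 10.21 in those of the S set, a log2 difference of -0.54 (95% interval -0.76 to -0.33, adjusted p = 0.00654). E2f4 was at 9.24, 9.56 and 9.61 in wild-type cells of the L set, against 9.84, 9.99 and 10.02 in those of the S set, a log2 difference of -0.48 (95% interval -0.75 to -0.21, adjusted p = 0.0314). Both genes were lower in the L set without overlap. The share of all genes without overlap between these wild types was not counted, so lack of overlap is not read as particular to any member. E2f7, E2f8 and Tfdp1 passed in all 12 fits that left out 1 array, and E2f4 in 8 of them. The E2f4 call was lost without wild-type array 2 or 3 of the S set and without wild-type array 1 or 2 of the L set, with adjusted p of 0.0646 to 0.148. Without both arrays with Y-linked RNA, Tfdp1 (-0.48, adjusted p = 0.0692) and E2f4 (-0.37, adjusted p = 0.203) no longer passed. E2f5 and Tfdp2 were higher in the wild-type cells of the L set without overlap, by 0.44 for E2f5 (adjusted p = 0.215) and 0.23 for Tfdp2 (adjusted p = 0.214), and did not pass. Without the array that stood apart these differences were 0.11 for E2f5 and 0.15 for Tfdp2. E2f1, E2f2, E2f3 and E2f6 differed by 0.18, -0.18, -0.079 and -0.039 between the wild types. Without that array they were at 0.044 for E2f1, 0.024 for E2f2, -0.14 for E2f3 and -0.28 for E2f6.

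The same contrast between the mutants, L/L minus S/S, was added after the data were seen. It shares the difference between the sets, so allele and set cannot be told apart in it. Here 5 of 10 members passed, against 9.44% of all genes. E2f1 (0.68, adjusted p = 0.0132) and Tfdp2 (0.58, adjusted p = 0.00567) were higher in L/L cells. E2f4 (-0.50, adjusted p = 0.0237), E2f7 (-0.56, adjusted p = 0.0047) and E2f8 (-0.78, adjusted p = 0.011) were lower in L/L cells. E2f7 and Tfdp2 passed in all 12 fits that left out 1 array, E2f8 in 11, E2f1 in 10 and E2f4 in 7. The E2f8 call was lost without L/L array 2 (adjusted p = 0.0571), and the E2f1 call without S/S array 1 (adjusted p = 0.0526) or L/L array 3 (adjusted p = 0.0574). The E2f4 call was lost without S/S array 2 or 3 or any single L/L array, with adjusted p of 0.0512 to 0.106. Without both arrays with Y-linked RNA, Tfdp2 (0.54, adjusted p = 0.0572) and E2f4 (-0.46, adjusted p = 0.0963) did not pass. The 3 lower genes had also passed as lower between the wild types. Tfdp1 passed between the wild types but not between the mutants, where it differed by -0.13 (adjusted p = 0.515). The test of that change is the difference between effects given above, which did not pass.

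**Figure D3:**
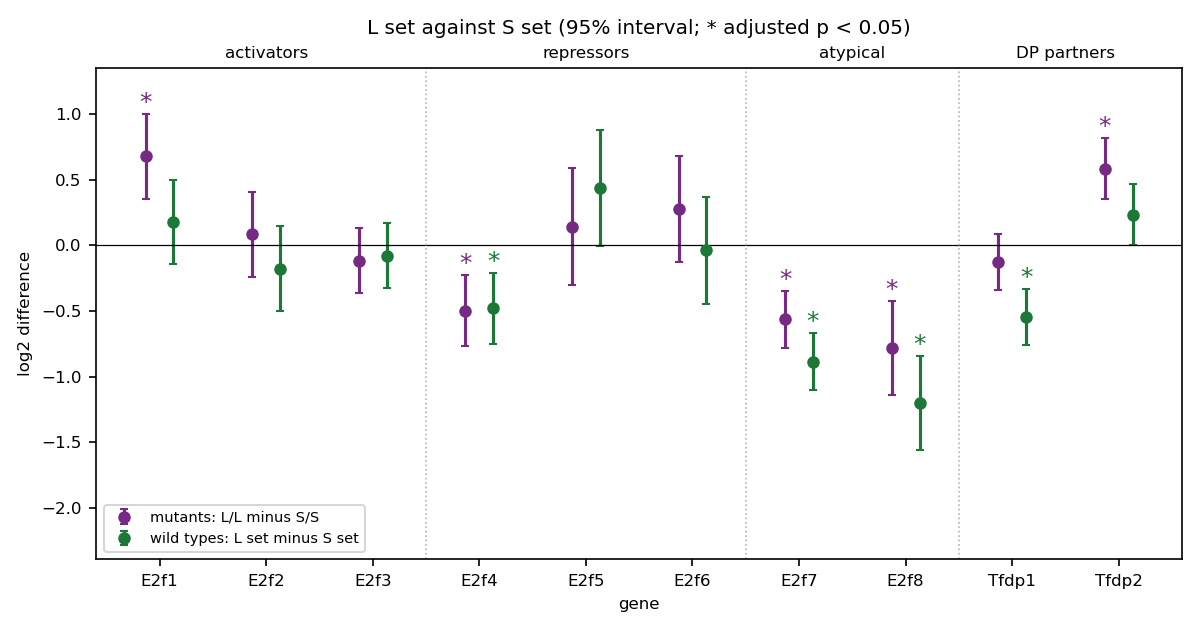
Log2 difference of the L set from the S set (vertical axis) in mutants, L/L minus S/S, and in wild types for the 10 genes, as points with 95% intervals; an asterisk marks an adjusted p under 0.05. E2f4, E2f7 and E2f8 are lower in the L set in both comparisons, an asterisk stands at Tfdp1 for wild types and at E2f1 and Tfdp2 for mutants, and the difference between the comparisons did not pass for these 3.

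Each of Tfdp1 and E2f3 had a second probe set with a single symbol, which gave a repeat on the same RNA. The other Tfdp1 probe set was at 10.09, 9.80 and 10.17 in L/L cells, against 9.80, 9.66 and 9.69 in their wild type. The lowest L/L array equalled the highest wild-type array to 2 decimals, and the difference was 0.30 (95% interval 0.06 to 0.55, unadjusted p = 0.0201, adjusted p = 1 over 21789 probe sets). Between wild types of the L and S sets it differed by -0.21 and did not pass (adjusted p = 0.293), while the probe set used passed in the same fit (-0.54, adjusted p = 0.00695). The probe sets of Tfdp1 thus gave the same direction in these comparisons, and the pass between wild types rests on 1 of them. The other E2f3 probe set differed by 0.24 in S/S cells (95% interval -0.32 to 0.80), but by -0.15 without the array that stood apart (adjusted p = 0.757). In L/L cells it differed by -0.035.

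**Figure D4:**
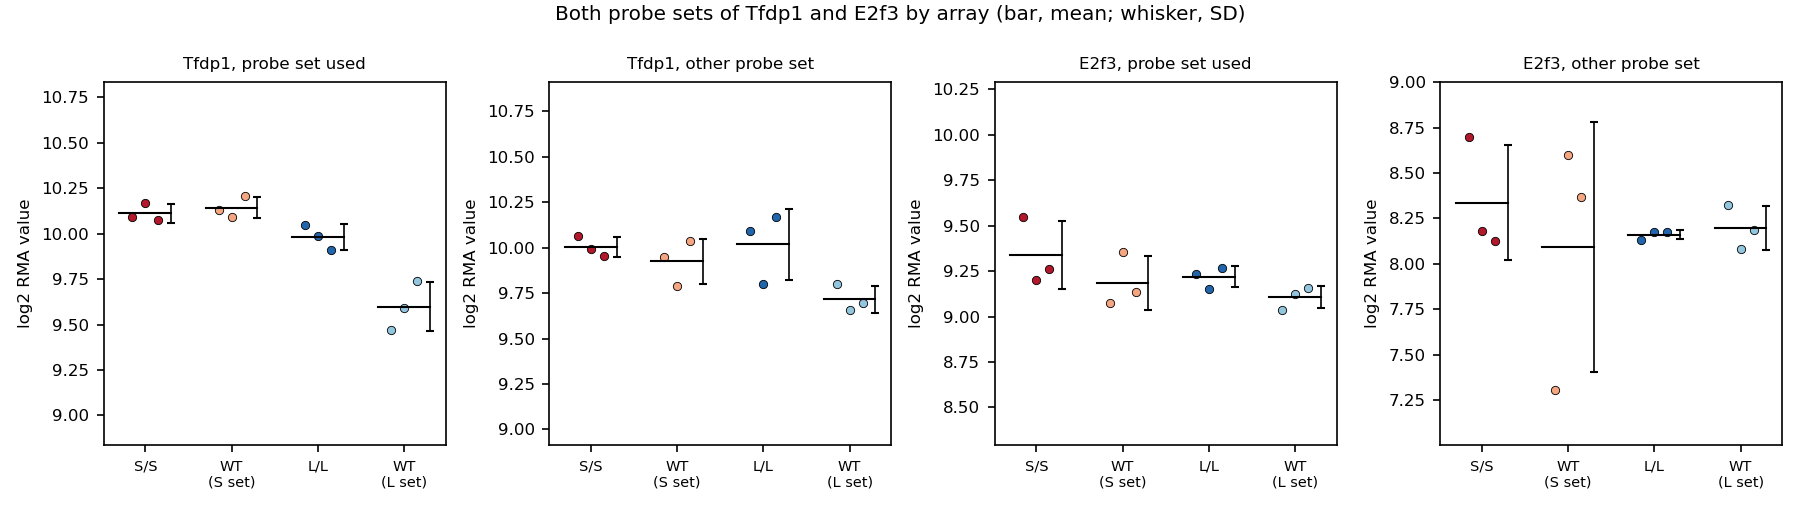
Log2 RMA values on each of 12 arrays for the probe set used and the other probe set of Tfdp1 and of E2f3, grouped as S/S, its wild type, L/L and its wild type, with mean and SD (n = 3). Both Tfdp1 probe sets average higher in L/L cells than in their wild type, by 0.38 and 0.30, and the low wild-type value of the other E2f3 probe set, 7.31, is on the array that stood apart.

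Genes that E2Fs act on were read from a list of G1/S targets, of which 23 of 24 were measured. The list was chosen with earlier results of these data known, so its counts are a description. In L/L cells all 23 differences were positive, with a median of 0.48, and 18 had an unadjusted p under 0.05, against 3.27% of all genes, but 1 passed. That gene was Mcm6, a subunit of the replicative helicase, which averaged 9.01 in L/L cells and 7.84 in their wild type (difference 1.17, SE 0.17, adjusted p = 0.0308). The Mcm6 call held in 3 of 12 fits that left out 1 array, with differences of 0.97 to 1.41 and adjusted p of 0.00198 to 0.241, and Mcm6 did not pass without both arrays with Y-linked RNA (0.99, adjusted p = 0.409). It also did not pass with each set fitted alone (adjusted p = 0.128), with every probe set tested (adjusted p = 0.163) or with the replicate number as a block (adjusted p = 0.107). In S/S cells 19 of the 23 differences were negative, with a median of -0.16, and none passed, with 3 at an unadjusted p under 0.05, against 10.1% of all genes. The mean level of the 23 targets was 9.00, 8.94 and 9.02 in L/L cells, against 8.26, 8.44 and 8.74 in their wild type. In S/S cells it was 8.62, 8.77 and 8.83, against 8.73, 8.99 and 9.00 in their wild type. The lowest of these wild-type means, 8.73, is on the array that stood apart, and the S/S differences of the targets are given with that array only. Between wild types 8 of the 23 passed, all lower in the L set, against 5.17% of all genes. They were Mcm2, Mcm3, Mcm5, Mcm6, Cdc6, Orc1, Pola2 and Chaf1b, of which Chaf1b differed most (-1.02). E2f7 and E2f8, which repress such targets, were lower in the same wild-type cells of the L set. Array 1 of that wild type, which held Y-linked RNA, was lowest of its group for the mean level of the targets. It was also lowest for E2f1, E2f2, E2f3, E2f4, E2f7, E2f8 and Tfdp1, and it was highest for E2f6 and Tfdp2. The part of these arrays in the results was not tested beyond leaving them out.

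**Figure D5:**
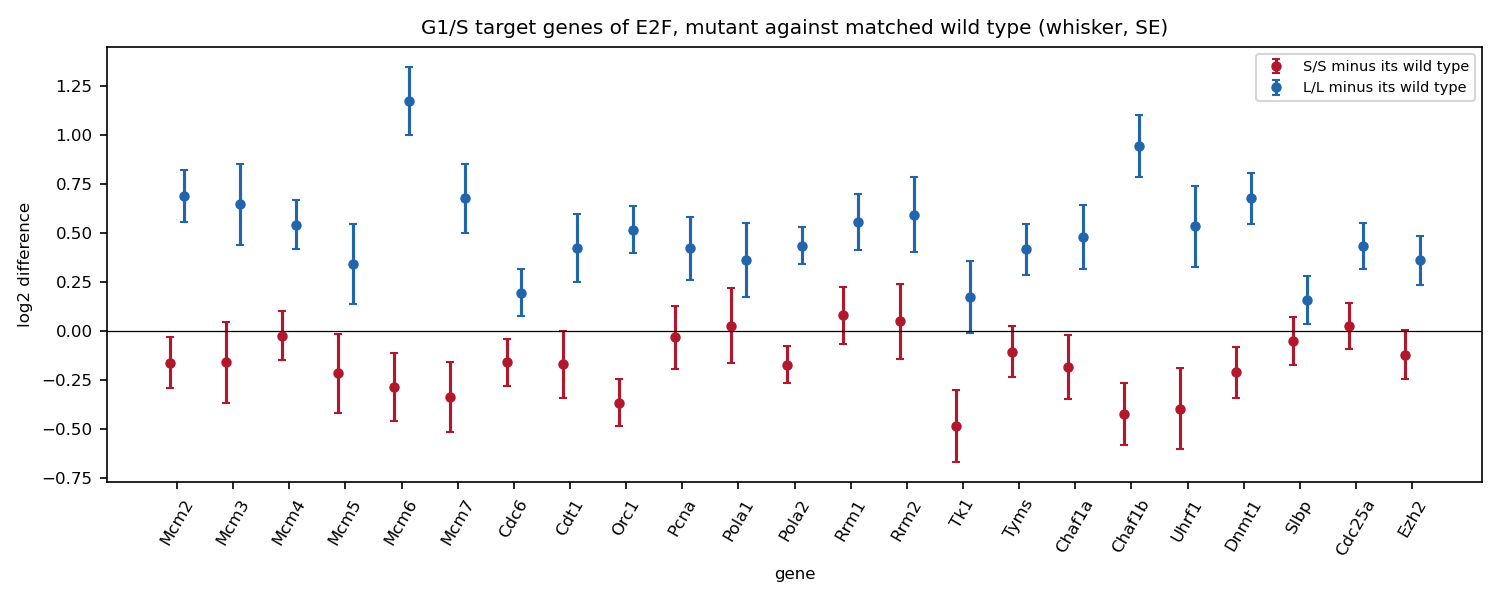
Log2 difference from the matched wild type (vertical axis) for the 23 measured G1/S targets of E2F in S/S and in L/L cells. All 23 L/L points lie above 0, between 0.16 and 1.17, and 19 of the 23 S/S points lie below 0.

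The other 8 lists of the pathway held no gene that passed in either mutant. Of the pocket proteins, Rbl2, which encodes p130, differed by 0.55 in S/S cells (adjusted p = 0.232) and by -0.22 in L/L cells. Rbl1, which encodes p107 and is itself E2F-driven, differed by 0.15 in S/S cells and 0.61 in L/L cells (adjusted p = 0.806). Among the 11 G1 cyclins and kinases, Ccne1, the cyclin that activates CDK2, differed by 0.57 in L/L cells (adjusted p = 0.155) and 0.011 in S/S cells. Cdk2 differed by 0.68 in L/L cells (adjusted p = 0.73). Among the 6 measured CDK inhibitors, Cdkn2a, a known target of E2F1, differed by 0.37 in L/L cells and Cdkn2c by 0.49. The MuvB core represses cell cycle genes when it is joined to E2F4 and p130. Its list of 7 genes, which also held the other partners Mybl2 and Foxm1, had a median difference of -0.14 in S/S cells and 0.073 in L/L cells. The smallest p values there belonged to Lin52 (0.20) and Mybl2 (-0.24), both in S/S cells. Mitotic genes had a median of -0.27 in S/S cells and 0.21 in L/L cells, with Cdk1 at -0.39 in S/S cells and 0.42 in L/L cells, and Aurkb at -0.35 in S/S cells. Between the wild types 4 of the 7 measured mitotic genes passed as lower in the L set, against 5.17% of all genes, among them Plk1 (-0.96).

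Lists tied to single members gave no passing gene in either mutant. Of the apoptotic targets of E2F1, Pmaip1, which encodes the death protein NOXA, differed by 0.75 in S/S cells (adjusted p = 0.176) and 0.040 in L/L cells. It passed between the wild types, where it was higher in the L set by 0.93 (adjusted p = 0.00791). Hrk, another death gene, differed by -0.25 in S/S cells. Partners of E2F6 had a median of 0.13 in S/S cells and -0.076 in L/L cells, with Mga at 0.62 and Ring1 at -0.23 in S/S cells. Germline genes that E2F6 silences had a median of -0.10 in S/S cells and 0.052 in L/L cells. Stag3 differed by 0.39 in L/L cells and Mael by -0.19 in S/S cells. In every group Smc1b, Tuba3b, Slc25a31 and Mael averaged below 6.26, the 95th percentile of the mean levels of olfactory receptor genes. The differences of these dim genes, and the medians that include them, are therefore not read as changes in expression. The S/S differences stood beside the higher macrophage markers of these arrays, all 8 of which lay without overlap above wild type, and their part was not tested.

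Genes with the most similar pattern were sought by Pearson's r over 12 arrays after subtracting group means, among 9960 genes with at least the median level. This is a description, since the genes named were picked for the highest r among all these candidates, all points share arrays and 1 array stood apart. E2f1 was most like Opa3 (0.975) and Fgfr2 (0.968), and E2f4 most like Ppdpf (0.971) and Echdc2 (0.96). For E2f7 the nearest were Smg9 (0.948) and Pop5 (0.939), for E2f8 Bcl3 (0.942) and Troap (0.927), and for Tfdp1 Tnfrsf11a (0.942) and Dtl (0.907). Dtl is an E2F target that serves DNA replication control. The nearest of Tfdp2 were Bdp1 (0.955) and Ints8 (0.951), of E2f3 Nudt2 and Sarnp (both 0.918), and of E2f6 Decr1 (0.986) and Ndufb6 (0.979). For E2f2 they were Washc1 (0.986) and Zfp385c (0.939), and for E2f5 Trappc6b (0.997) and Usp8 (0.993). The likeness of Zfp385c to E2f2 was 0.681 without the array that stood apart, and every other value named was at least 0.907 without it.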

How the data were processed

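Total RNA of mouse embryonic fibroblasts was measured on 12 Affymetrix Mouse Gene 1.0 ST arrays. The authors deposited RMA values on a log2 scale, made with Partek, per the series' design text and the submitters' processing notes. RMA corrects background, normalizes between arrays and summarises probes, so values do not compare between genes. The array's build was not given in these sources. The log2 scale follows from the range of values, 2.43 to 14.67. Of 35556 probe sets, 21789 carried 1 symbol, 1621 several and 12146 none. These gave 19938 genes.

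A model with 4 group means was fitted with limma 3.58.1 in R 4.3.3 (8 residual and 5.19 prior degrees of freedom), with no filter on dim values and Benjamini-Hochberg adjustment over all genes in each contrast. The fit was tested on simulated data. The number of arrays limits the precision. Genes named were the 10 members, Rb1, in each pathway list those that passed in a mutant or else the 2 of smallest p, and the 2 genes most like each member. Those named as passing between the wild types, and Rbl1, were chosen after their values were seen. The members and lists were chosen with earlier results of these data known. Same-numbered arrays did not deviate together in every pair (correlations -0.122 to 0.601), so numbers were not used as pairs. Alternatives covered quantile normalization, filters, array weights, each set alone, the other probe sets and leaving out arrays.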

Additional observations from a re-analysis of the deposited data

How the results depend on the processing

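Of the differences of the 10 genes under the alternatives, 948 kept direction and side of the threshold, 41 turned sign, 18 lost and 3 gained a call; none that turned sign had passed. The causes were not tested. Fitting each set alone, the replicate block, a filter on level and testing every probe set leave the difference itself unchanged. The same holds within a set when an array of the other set is left out. Direction could not turn in such fits, so the count of 948 was in part fixed in advance. With array weights, pathway genes passing numbered 4 in S/S cells and 21 in L/L cells, and 1 member, Tfdp1, passed in L/L cells. The differences then turned for E2f3 (-0.043), E2f5 (-0.022) and Tfdp1 (0.016) in S/S cells, and between the effects for E2f3 (-0.14) and E2f5 (-0.027). In wild types of the L set against the S set, E2f3 (-0.21, adjusted p = 0.0266) and E2f6 (-0.51, adjusted p = 0.00205) passed with array weights. Wild-type arrays 1, 2 and 3 of the S set had weights of 0.0774, 5.88 and 0.794, so array 2 largely set that group's mean. Left out of the fit without weights, array 2 took these differences to 0.0039 for E2f3 and 0.17 for E2f6. The pathway gene passing in L/L cells, Mcm6, gave a count of 0 with each set alone, with the replicate block, with every probe set tested and without both arrays with Y-linked RNA, and of 7 without both S set arrays numbered 1, an alternative added after seeing the data. With the replicate block E2f1 differed by 0.44 in L/L cells (adjusted p = 0.255) and Tfdp1 by 0.38 (adjusted p = 0.476), and no member passed in either mutant. Same-numbered arrays correlated best in 3 of 6 arrays of the S set and 4 of 6 of the L set, and the sets share no pairs, so contrasts between sets had no such fit. Without both S set arrays numbered 1, E2f3 (-0.012) and E2f5 (-0.0071) turned in S/S cells, E2f3 (-0.12) and E2f5 (-0.014) between the effects, and E2f2 (0.024) between wild types. Quantile normalization turned E2f5 in L/L cells (-0.014) and E2f3 (-0.016) and E2f4 (-0.039) between the effects. Without both arrays with Y-linked RNA, E2f5 (-0.037) and E2f8 (-0.031) turned in L/L cells, 2 members passed between wild types and 3 between mutants. The other probe sets turned Tfdp1 in S/S cells (0.077) and between mutants (0.017), and E2f3 in L/L cells (-0.035) and between wild types (0.10). E2f4 between wild types had an adjusted p of 0.0513 with every probe set tested. Leaving out 1 array gave 0 to 3 pathway genes in L/L cells and 3 to 5 members between mutants. Signs turned in S/S cells for E2f1 (-0.19 to 0.040), E2f5 (-0.025 to 0.49), E2f6 (-0.34 to 0.10) and Tfdp1 (-0.060 to 0.0014). They turned in L/L cells for E2f2 (-0.083 to 0.035), E2f5 (-0.038 to 0.037) and E2f8 (-0.0097 to 0.37). Between the effects they turned for E2f3 (-0.067 to 0.12), E2f4 (-0.083 to 0.13) and E2f5 (-0.033 to 0.48), and between wild types for E2f2 (-0.32 to 0.024), E2f3 (-0.14 to 0.0039) and E2f6 (-0.28 to 0.17).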
